A study of Mus musculus with 13 samples.

Results

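The comparison described here sets the 4 arrays headed HOM against the 5 arrays headed HET in the deposited table of a mouse striatum study, 9 of its 13 arrays. The members were chosen by these column headings alone, and all 45101 probe sets of the array were compared between them. The study profiled the striatum of mice that lack one or both copies of the gene for STEP, beside wild type littermates. All mice were naive males on the C57Bl/6J background, and total RNA extracted with Trizol was hybridised as biotinylated cRNA to Affymetrix arrays. The labels state no age, no design of the mutant allele and no array type. Both deposited tables carry the arrays' values, and they disagree on which group is which. The intensities headed HOM1 to HOM4 are those of the 4 samples recorded as wild type, equal within a rounding of 0.5 for 4423 of 4423 shared probe sets in each array, and those headed WT1 to WT4 are those of the 4 samples recorded as homozygous. The HET columns carry the same genotype, heterozygous STEP knockout, in both. The groups are therefore called HOM-headed (homozygous by the table, wild type by the sample records), HET, and WT-headed (wild type by the table, homozygous by the sample records). A difference between HOM-headed and HET arrays is homozygous against heterozygous by the rule, and may be 2 intact alleles against 1 if the headings were exchanged.

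Ptpn5 encodes STEP, a protein tyrosine phosphatase enriched in the striatum. STEP is found in neurons of the striatum, cortex and hippocampus. It removes phosphate from tyrosines of NMDA and AMPA receptor subunits and of the MAP kinases ERK1/2 and p38, and so opposes synaptic strengthening and MAP kinase signalling. The striatum is made up mostly of medium spiny projection neurons, which carry much of the tissue's STEP, with a minority of interneurons and glia.

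Values are PLIER intensities, a summary of an Affymetrix probe set on a linear scale. Gene names come with a shorter deposited list of 4423 probe sets, which the authors selected on these same arrays, and the other 40678 probe sets are unnamed here. Of the 30 genes drawn up as markers of medium spiny neurons only 2, Arpp21 and Eya1, are on that list, so most of the markers that would check the labelled tissue cannot be named. The whole-array median intensity ran from 154 to 198 over the 9 arrays. Where nothing says otherwise, a difference is the mean log2(intensity + 16) of the HOM-headed arrays minus that of the HET arrays, tested with limma and called at an adjusted p under 0.05 over all 45101 probe sets. Nothing in the labels says that each array is a separate mouse, so p-values measure the spread between these arrays, and their number limits the precision.

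Ptpn5 was highest in the HOM-headed arrays, lower in the HET arrays and lowest in the WT-headed arrays. The first of its 2 probe sets (on chromosome 7) had intensities of 1954, 1556, 1452 and 1633 in the HOM-headed arrays. The HET arrays had 1239, 860, 1288, 990 and 761, and the WT-headed arrays had 364, 585, 559 and 434. No array of one group reached into the range of another. In RNA from whole tissue, fewer cells of a type and less RNA per cell cannot be told apart. The second probe set had 3882, 3290, 3326 and 3608 in the HOM-headed arrays and 2856, 2175, 3142, 2418 and 1924 in the HET arrays. Its WT-headed arrays had 1016, 1537, 1360 and 1134, so that the groups were again apart. The difference was 0.69 ± 0.16 log2 (SE) for the first and 0.51 ± 0.14 for the second, and neither passed over the whole array (limma adjusted p = 0.287 for both). Centring each array on its hybridization controls, chosen after the data were seen, made the first pass (0.92 log2, limma adjusted p = 0.0301). Array weights made both pass (0.83 and 0.63 log2), and ran from 0.32 for HET3 to 2.90 for HET2 in the groups compared. Neither passed after each array's median was subtracted (limma adjusted p = 0.0975 and 0.101) or after quantile normalization (0.0967 and 0.183). Leaving out any single HOM-headed or HET array made neither pass. The WT-headed arrays lay below the HET arrays by more, with differences of -1.05 ± 0.16 and -0.97 ± 0.14 log2, and there both passed (limma adjusted p = 0.0151 and 0.0123). A homozygous label on the HOM-headed arrays thus stands beside the highest level of the targeted gene. By the sample records the same order falls from wild type through heterozygous to homozygous. Where these probe sets lie relative to the deletion is not stated in the labels, and probes outside it need not follow the genotype.

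Tlr4 was the one probe set of the whole array to pass between HOM-headed and HET arrays. Tlr4 is the receptor through which cells sense bacterial lipopolysaccharide, known best from microglia and other innate immune cells. Its intensity (probe set on chromosome 4) was 30.8, 20.6, 23.4 and 20.4 in the HOM-headed arrays and 74.0, 54.8, 72.3, 58.5 and 63.2 in the HET arrays. Every HOM-headed array lay below every HET array, and the means were 23.8 ± 4.86 (SD, n = 4) and 64.6 ± 8.42 (SD, n = 5). This came to -1.02 ± 0.12 log2 (SE) with a limma adjusted p of 0.000566. It fell by 0.90 log2 after each array's median was subtracted, and passed again (limma adjusted p = 0.00053). The call held without each of the 9 arrays in turn, where the difference ran from -1.10 to -0.98 and the limma adjusted p reached at most 0.00697. A plain equal-variance test of each probe set, with no moderation across the array, gave the same difference and an adjusted p of 0.13, and a filter that keeps probe sets with a mean intensity of at least 100 leaves Tlr4 out.

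Tlr4 ran in the opposite order to Ptpn5 across the 3 groups. The WT-headed arrays had Tlr4 intensities of 74.3, 101, 81.5 and 94.8, and their difference from the HET arrays was 0.37 ± 0.12 log2, which did not pass (limma adjusted p = 1). The HET and WT-headed ranges of Tlr4 adjoin without overlapping, and the HOM-headed arrays lie below both. The probe set is dim: it ranked on average at the 10.8 percentile of an array in the HOM-headed group and at the 26.8 percentile in the HET group, where the first Ptpn5 probe set ranked at 92.7 and 85.2.

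**Figure D1:**
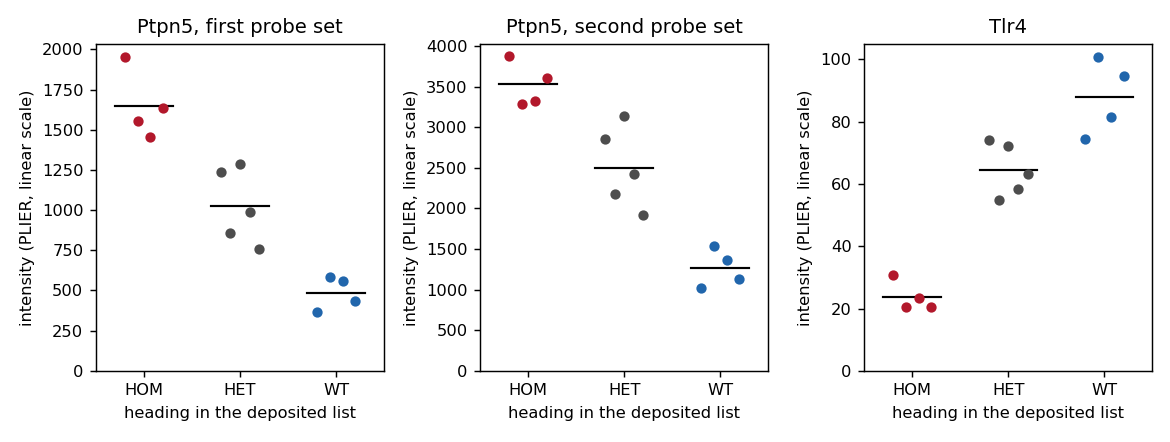
Intensity (PLIER, linear scale) of both Ptpn5 probe sets and of Tlr4 in each array, grouped by the heading of the deposited table. Points are arrays and bars are group means; Ptpn5 steps down from HOM to HET to WT without overlap, and Tlr4 is low in the 4 HOM-headed arrays alone, from 20.4 to 30.8.

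Other members of Toll-like receptor signalling differed by less. Of the 27 genes of that list 6 are named on the array, Tlr4 was the 1 that passed, and 3 of the 6 had an unadjusted p under 0.05, all lower in the HOM-headed arrays (2 after median centring, 1 without HOM3). Of all 4423 listed probe sets 83.7% were lower at that level. Tlr3, the receptor for double-stranded RNA, had 167 ± 18.5 (SD, n = 4) and 218 ± 33.6 (SD, n = 5), a difference of -0.36 log2 that did not pass. Ly96, the MD-2 partner that Tlr4 needs to bind lipopolysaccharide, had 41.5, 41.2, 35.9 and 40.1 in the HOM-headed arrays against 53.2, 56.0, 47.7, 49.1 and 51.9 in the HET arrays. These ranges do not overlap, yet the difference was -0.28 log2 (limma adjusted p = 0.405). In 27.5% of all listed probe sets every HOM-headed array lay below every HET array. Irak3, an inhibitor of the pathway, differed by 0.03 log2.

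Over the whole array, most small differences pointed the same way. The adjusted threshold called 1 of 45101 (0.00222%). Without adjustment, 4953 (11%) had p under 0.05. The HOM-headed mean was the lower one in 4884 of these (10.8%) and the higher one in 69 (0.153%). The median difference over all probe sets was -0.12 log2. In 2950 probe sets (6.54%) every HOM-headed array lay below every HET array, and in 28 (0.0621%) every one lay above.

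This direction depended on the scale. Once each array's median was subtracted, 4469 probe sets (9.91%) had an unadjusted p under 0.05, 2604 lower (5.77%) and 1865 higher (4.14%), and 1 passed the adjusted threshold, again Tlr4. The all-below and all-above counts were then 699 (1.55%) and 731 (1.62%). Quantile normalization gave 3402 (7.54%), 1732 lower (3.84%) and 1670 higher (3.7%), and again called 1. Centring on the 18 hybridization-control probe sets turned the overall median to 0.10 log2, with 3387 (7.51%) at that level, 345 lower (0.765%) and 3042 higher (6.74%). Those controls are bacterial and phage transcripts added in fixed amounts, and they were themselves lower in the HOM-headed arrays, at 11.07, 10.96, 10.97 and 11.14 log2 against 11.48, 11.05, 11.34, 11.07 and 11.36. The ranges overlap, and the difference of -0.23 log2 did not pass an exact two-sided permutation test (p = 0.0873, adjusted p = 0.167 over 5 array measures). Differences below are given as deposited, with the median-centred value beside them where it matters.

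Of the 5 array measures, the interquartile range of log2 levels was 2.80 ± 0.0657 (SD, n = 4) in the HOM-headed and 2.92 ± 0.0597 (SD, n = 5) in the HET arrays. Its exact permutation p was 0.0476 and did not pass adjustment (adjusted p = 0.167). The median log2 level was 7.46 ± 0.0608 (SD, n = 4) and 7.57 ± 0.125 (SD, n = 5), with overlapping ranges (exact permutation p = 0.167, adjusted p = 0.167). The ratio of 3-prime to 5-prime signal in the Gapdh and beta-actin controls, a sign of RNA integrity, differed by -0.04 and -0.05 log2, with exact permutation p of 0.143 and 0.127.

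**Figure D2:**
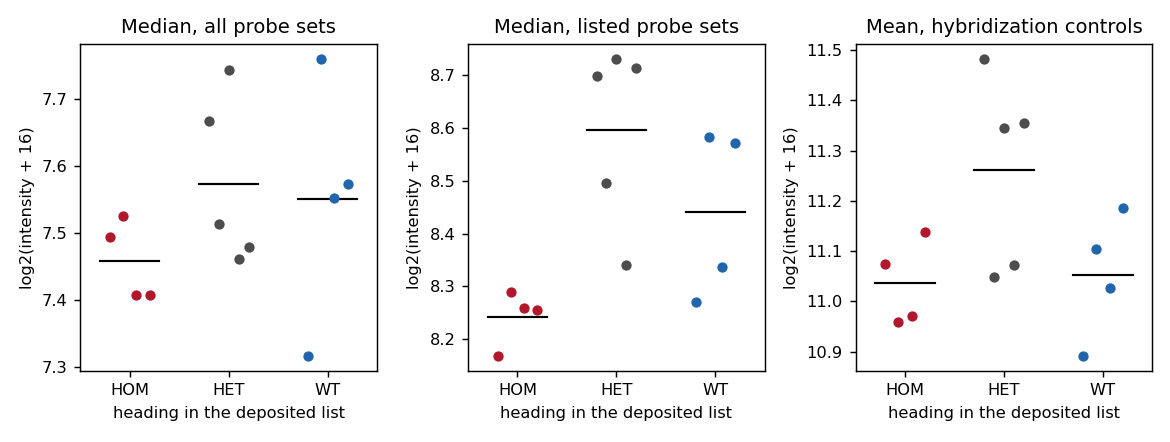
Median log2(intensity + 16) of all probe sets and of the listed probe sets, and the mean of the hybridization controls, in each array by table heading. Points are arrays and bars are group means; the HOM-headed arrays lie between 8.17 and 8.29 for the listed probe sets and the HET arrays between 8.34 and 8.73.

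The named probe sets are not a sample of the array. The authors' selection on these arrays left 3728 of the 4423 listed probe sets (84.3%) with an unadjusted p under 0.05 between HOM-headed and HET arrays, 3704 of them lower (83.7%) and 24 higher (0.543%). Among the 40678 unlisted probe sets it was 1225 (3.01%), 1180 lower (2.9%) and 45 higher (0.111%). After median centring the listed set had 2215 (50.1%), 2183 lower (49.4%) and 32 higher (0.723%). The unlisted set then had 2254 (5.54%), 421 lower (1.03%) and 1833 higher (4.51%). The median difference was -0.31 log2 over listed and -0.11 over unlisted probe sets, and -0.20 and 0.01 after centring. As deposited, every HOM-headed array lay below every HET array in 1218 listed probe sets (27.5%), and above in 7 (0.158%). Groups without overlap in the named genes below are to be read against these shares. The list was chosen on these samples, so the counts for gene groups below are descriptions to be read against 83.7% and are not independent evidence of a direction.

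**Figure D3:**
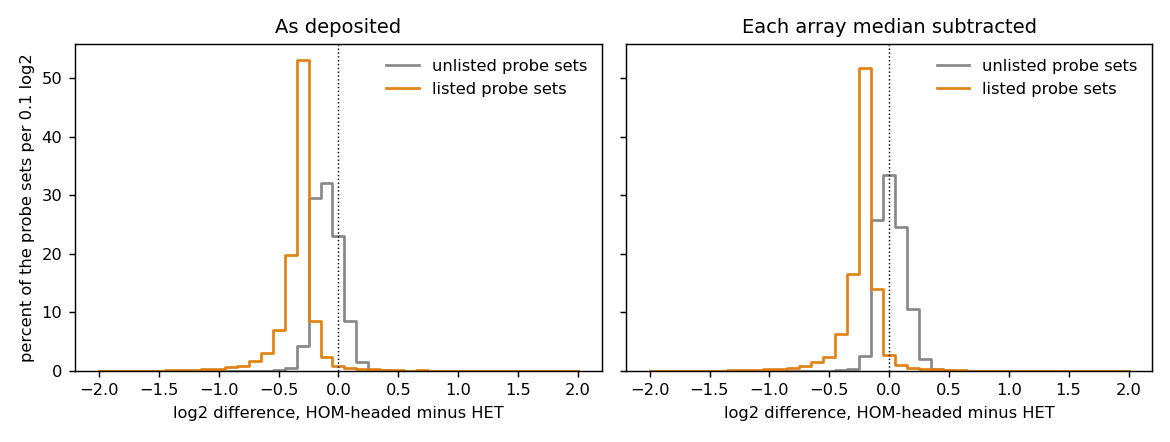
Distribution of the log2 difference (HOM-headed minus HET) for listed and unlisted probe sets, as percent of each set per bin of 0.1 log2, as deposited and after each array's median was subtracted. The unlisted probe sets centre on -0.11 as deposited and on 0.01 after centring, and the listed ones on -0.31 and -0.20.

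Beyond Tlr4, the genes with the smallest p among those lower in the HOM-headed arrays had large differences that did not pass. Egln3, a prolyl hydroxylase that marks hypoxia-inducible factors for destruction, had 34.2, 57.3, 40.5 and 68.9 in the HOM-headed arrays and 124, 109, 128, 71.5 and 192 in the HET arrays. The groups did not overlap, but HET4 came close to HOM4, and the difference was -1.06 ± 0.19 log2 (SE, limma adjusted p = 0.155). A second Egln3 probe set had a difference of -0.71. Rasl10a, a small GTPase of the Ras family, had 319, 434, 404 and 425 against 971, 645, 662, 523 and 1055, again without overlap and again with HET4 lowest of its group. Its difference was -0.90 ± 0.17 log2 (SE, limma adjusted p = 0.155). Rprm, which encodes Reprimo, a p53-induced inhibitor of the cell cycle, had 321, 958, 576 and 857 against 1694, 1825, 1440, 1134 and 1920 (-1.31 log2, limma adjusted p = 0.191). The HOM-headed arrays were widely spread, and the highest of them was below the lowest HET array.

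Serpini1, the neuronal protease inhibitor neuroserpin, had 1274, 2264, 1808 and 1898 against 3574, 3133, 3211, 2399 and 4112 (-0.86 log2, limma adjusted p = 0.241). Fam163b had 322, 416, 257 and 404 against 677, 603, 874, 416 and 665 (-0.84 log2), where HOM2 and HET4 met at 416. One Rps15a probe set, for a protein of the small ribosomal subunit, differed by -0.71 log2, and Atp2b4, a calcium pump of the plasma membrane, by -0.71. Nptx2, a secreted pentraxin that gathers AMPA receptors at synapses, differed by -0.61 and Chrdl1, an antagonist of bone morphogenetic proteins, by -0.55. In 8 of these 9 genes other than Tlr4 the difference stayed below -0.5 log2 without each of the 9 arrays in turn, and the exception was Chrdl1, which reached -0.49. HET4 was the lowest HET array for each of these 9 genes except Chrdl1.

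HET4 decided how many genes passed. Without it 213 probe sets passed the limma test, Tlr4 among them, 2 of them higher in the HOM-headed arrays, with a median difference of -0.72 log2, and 203 of the 213 are on the authors' list. HET4 lay 0.14 log2 below the mean of the other 4 HET arrays in the median probe set and 0.29 below in the median listed one. After median centring, leaving out HET4 left 1 probe set, so the 213 belong to the scale as deposited. Without HOM4 the count was 4 and without HET5 it was 2. Without any one of the other 6 arrays it was 1.

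**Figure D4:**
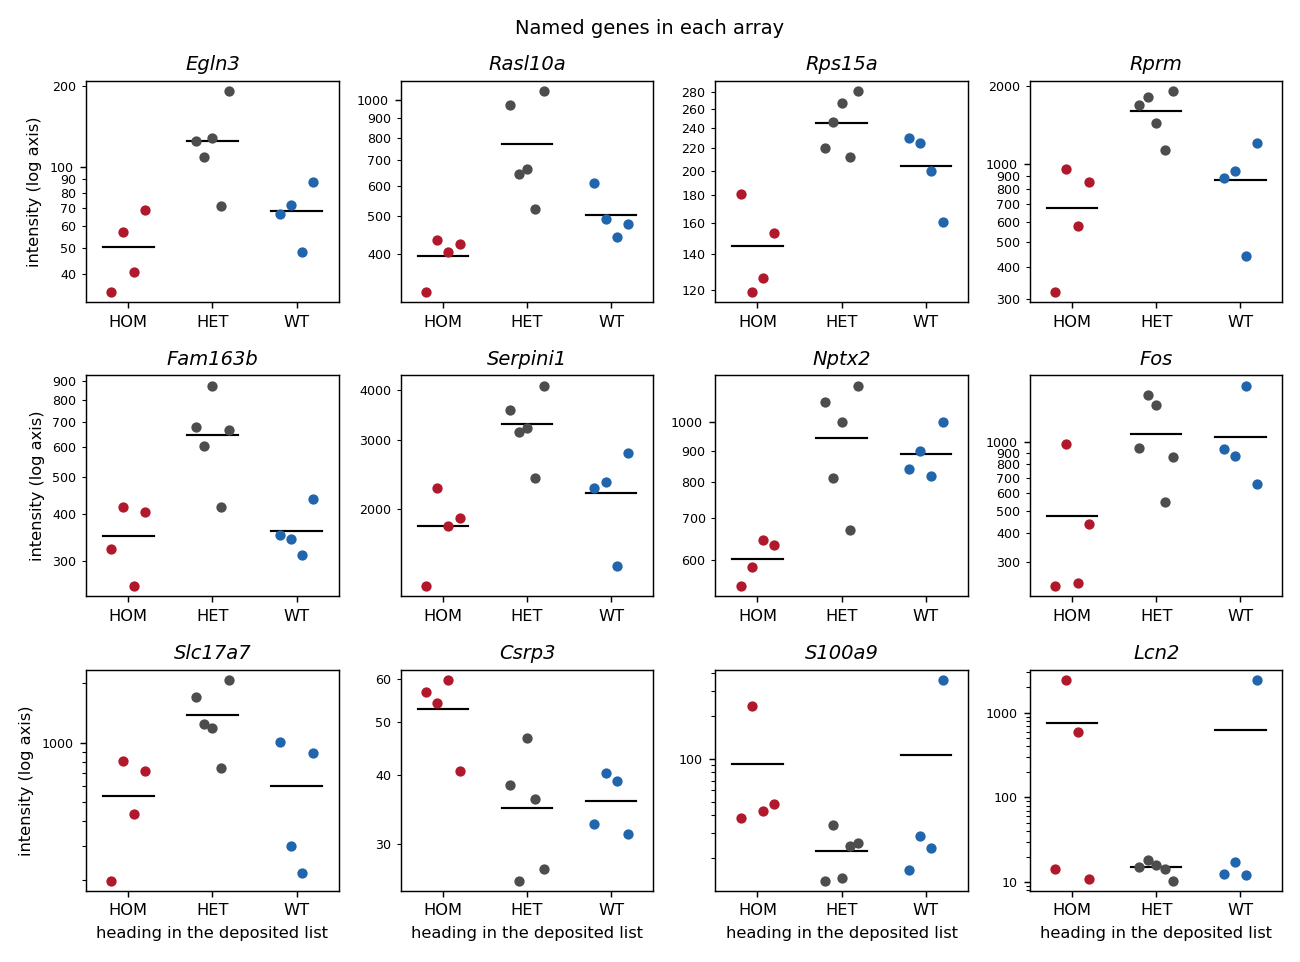
Intensity on a log axis of 12 named genes in each array by table heading. Points are arrays and bars are group means; the HOM-headed mean is below the HET mean from Egln3 to Slc17a7 and above it for Csrp3, S100a9 and Lcn2, where single arrays such as HOM2 (235 and 2443) lie far above the rest.

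Fewer genes were higher in the HOM-headed arrays, and none passed. After Ptpn5, the smallest p belonged to Csrp3, a LIM-domain protein of striated muscle on chromosome 7, with 56.8, 54.3, 59.8 and 40.7 against 38.4, 25.7, 46.9, 36.2 and 27.0 (0.45 ± 0.13 log2, SE, limma adjusted p = 0.311). HOM4 lay inside the HET range and the other 3 lay above it. The uncharacterised transcript 1700001C02Rik had 66.5, 59.7, 72.9 and 70.2 against 54.6, 57.6, 49.9, 51.1 and 39.0 (0.33 log2), without overlap. Another, 1700021F07Rik, differed by 0.40 with HOM3 inside the HET range. One Gnas probe set, for the stimulatory G protein subunit, differed by 0.35, Bnip2 by 0.30, the secreted lectin Reg1 by 0.29 and Gm11428 by 0.27. All of these are dim probe sets with mean intensities under 100 in both groups, apart from Ptpn5.

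A trio of genes known from neutrophils and the acute phase response was led by HOM2. Lcn2, a protein that withholds iron from bacteria, had 14.5, 2443, 600 and 10.9 in the HOM-headed arrays and between 10.4 and 18.4 in the HET arrays. S100a9 had 38.5, 235, 42.7 and 47.8, and S100a8, its partner in calprotectin, had 109, 840, 110 and 139. HOM2 was the highest array for all 3, and WT4 had 2438, 358 and 1330 in the same order. The differences of 2.61, 1.16 and 1.38 log2 did not pass (limma adjusted p = 0.418, 0.417 and 0.439), and without HOM2 they were between 0.64 and 1.37. Even without HOM2, every HOM-headed array was above every HET array for S100a8 and S100a9. Alas2, a haem synthesis enzyme of red blood cells, was also highest in HOM2, at 782 against 87.4 to 232 in the other HOM-headed arrays and 113 to 230 in the HET arrays.

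Gene groups were described by how many named members had an unadjusted p under 0.05, since Tlr4 alone passed over the array. Of 203 named genes in 37 lists, 173 were lower in the HOM-headed arrays at that level and 0 were higher, against 83.7% and 0.543% of all listed probe sets. After median centring 110 of the 203 were lower and 0 were higher (49.4% and 0.723% of all listed probe sets). After centring on the hybridization controls 40 were lower and 2 higher. By sign alone, 195 and 188 of the 203 had the lower mean in the HOM-headed arrays on those 2 scales. The medians of all listed probe sets were also below 0 there, at -0.20 and -0.08 log2, so these counts are no independent evidence of a direction. The medians quoted for lists are log2 differences (HOM-headed minus HET), to be read beside -0.31 for all listed probe sets, or -0.20 after centring.

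Among the genes closest to STEP itself, 2 of 13 substrates and regulators are named. Grin2b, the NMDA receptor subunit that STEP dephosphorylates, had 1982, 2010, 1857 and 1980 in the HOM-headed arrays and 2725, 2083, 2893, 2111 and 2361 in the HET arrays. All HOM-headed arrays were below all HET arrays, as in 27.5% of all listed probe sets. The difference was -0.30 ± 0.12 log2 (SE, limma adjusted p = 0.402). Bdnf, the neurotrophin, differed by -0.55 log2. Both had an unadjusted p under 0.05, and 1 did without HET3 or HET5. Of the regulators that switch off MAP kinases, downstream of the same phosphatase, 5 of 15 are named. All 5 had an unadjusted p under 0.05 (3 without HOM3, and 3 after centring). At that level 83.7% of all listed probe sets were lower, and 49.4% after centring. The counts thus do not set either group apart from the list. The phosphatases Dusp4, Dusp1 and Dusp6 differed by -0.67, -0.48 and -0.42 log2.

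Genes that are switched on soon after neurons fire had 26 of 36 members named, and all 26 were lower in the HOM-headed arrays. Their median was -0.42 log2, and 21 of the 26 had an unadjusted p under 0.05 (8 without HOM3). At that level 83.7% of all listed probe sets were lower, so the count does not set these genes apart from the list. The transcription factor Fos had 234, 987, 242 and 438 in the HOM-headed arrays and 947, 1601, 1457, 547 and 862 in the HET arrays. HOM2 lay within the HET range and the other 3 below it, and the difference was -1.31 ± 0.33 log2 (SE, limma adjusted p = 0.287). Egr2, another transcription factor, differed by -0.92, the synaptic gene Arc by -0.89, and Jun and Btg2 by -0.45 and -0.58. After median centring 10 of the 26 had an unadjusted p under 0.05, with a median of -0.31, and the secreted protein gene Scg2 turned to the higher side (0.03). The share of all listed probe sets lower at that level was then 49.4%. Centring on the hybridization controls left 3 of the 26 at that level, with a median of -0.20. Against the WT-headed arrays the same 26 genes had a median difference from HET of -0.00, with 2 lower and 2 higher at that level.

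Genes of both sides of the synapse had lower means in the HOM-headed arrays. So did 83.7% of all listed probe sets at an unadjusted p under 0.05, and 49.4% after centring. For transmitter release, 18 of 28 genes are named, 16 had an unadjusted p under 0.05, all lower, and the median was -0.39. The synaptic vesicle glycoprotein Sv2b had 1996, 2808, 2612 and 2549 against 4328, 3552, 3439, 2927 and 5048, without overlap (-0.61 log2, limma adjusted p = 0.287). The membrane fusion protein Stx1a differed by -0.97, the active zone scaffold Rims1 by -0.49 and Napb, which helps to recycle the fusion complex, by -0.48. After centring 14 of the 18 were lower at that level, and leaving out single arrays gave 13 to 16. Centring on the controls left 8, and by sign 16 of the 18 had the lower mean in the HOM-headed arrays on either scale.

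On the receiving side, 13 of 29 ionotropic glutamate receptor and scaffold genes are named, and 12 had an unadjusted p under 0.05 (7 after centring, 5 without HET3). The postsynaptic scaffolds Dlgap1 and Shank2 differed by -0.66 and -0.54 log2 and Dlgap4 by -0.33. Of 4 named GABA receptor genes 3 were lower at that level, Gabra3 by -0.76, Gabra5 by -0.42 and Gabrb2 by -0.37. Adhesion and axon guidance genes had 13 of 14 named members lower (9 after centring), with the presynaptic neurexin Nrxn2 at -0.47, the synapse organiser Slitrk1 at -0.58 and the adhesion molecule Cntn1 at -0.33.

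Ion channels were lower throughout at the unadjusted level, where 83.7% of all listed probe sets were lower too. All 6 named potassium channel genes had an unadjusted p under 0.05 (2 after centring, 3 without HET5), with Kcnj3, a G protein-gated inward rectifier, at -0.73, Kcnc1 at -0.42 and Kcna6 at -0.41. All 9 named sodium and calcium channel genes did so too (6 after centring). The sodium channel Scn2a1 differed by -0.47, and the calcium channel subunits Cacna2d1 and Cacnb3 by -0.44 and -0.42.

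Kinases and small GTPases had lower means in the HOM-headed arrays, where 83.7% of all listed probe sets were lower at an unadjusted p under 0.05. All 13 named small GTPases and their regulators had an unadjusted p under 0.05 (9 after centring, 8 without HOM1), with Rap2a at -0.45 and the exchange factor Iqsec2 at -0.41. Of 13 named calcium-dependent and phosphoinositide kinases 11 did, with protein kinase C gamma (Prkcc) at -0.51, Pip5k1c at -0.47 and the diacylglycerol kinase Dgkz at -0.46. Dopamine and cAMP signalling, the pathway most tied to the striatum, had 4 of 29 genes named and 2 at that level, Arpp21 at -0.41 and Rapgef4 at -0.30, while Rgs14 was at -0.28. The cannabinoid receptor gene Cnr1 had the higher mean in the HOM-headed arrays, at 0.10 as deposited and 0.21 after centring. Of these 4 genes 1 was lower at that level without HOM3.

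Groups with general cell functions were in the same direction with few named members. The list as a whole had 83.7% lower at an unadjusted p under 0.05, and 49.4% after centring. Named were 7 of 28 translation factors, 7 of 35 splicing and RNA-binding factors and 7 of 36 chromatin regulators. Ubiquitin and proteasome genes had 3 of 28 named, respiratory chain genes 3 of 28 and ribosomal protein genes 2 of 29. Stress and heat shock genes had 5 of 21, hypoxia and glycolysis genes 5 of 19 and clock genes 3 of 16. The translation factors had 7 of 7 named members lower at the unadjusted level (5 after centring, 4 without HET1, HET3, HOM3 or HOM4), with Cpeb1 at -0.51, Eif4g3 at -0.40 and Cpeb3 at -0.38. Splicing and RNA-binding factors had 7 of 7 (5 after centring, 2 without HET1, and 3 without HET3, HET5 or HOM4), with Elavl4 at -0.80, Hnrnpu at -0.32 and Celf4 at -0.30. Chromatin regulators had 6 of 7 (4 after centring, 2 without HET3, and 3 without HET1 or HOM4), with Hdac4 at -0.35, Smarca2 at -0.32 and Chd3 at -0.31. Ubiquitin and proteasome genes had 3 of 3 (1 without HOM4) and respiratory chain genes 3 of 3 (0 after centring, 1 without HET1, HET3, HOM1 or HOM4). Ribosomal protein genes had 2 of 2, and 1 without HET1, HET3, HOM1, HOM2 or HOM4. Stress and heat shock genes had 5 of 5 (1 after centring, 1 without HOM1, and 3 without HET3, HET5 or HOM4). Among them the chaperone Hspa8 was at -0.71 and the cell cycle inhibitor Cdkn1a at -0.58. Hypoxia and glycolysis genes had 4 of 5 and clock genes 3 of 3 (1 without HET3, HET5, HOM1 or HOM4).

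**Figure D5:**
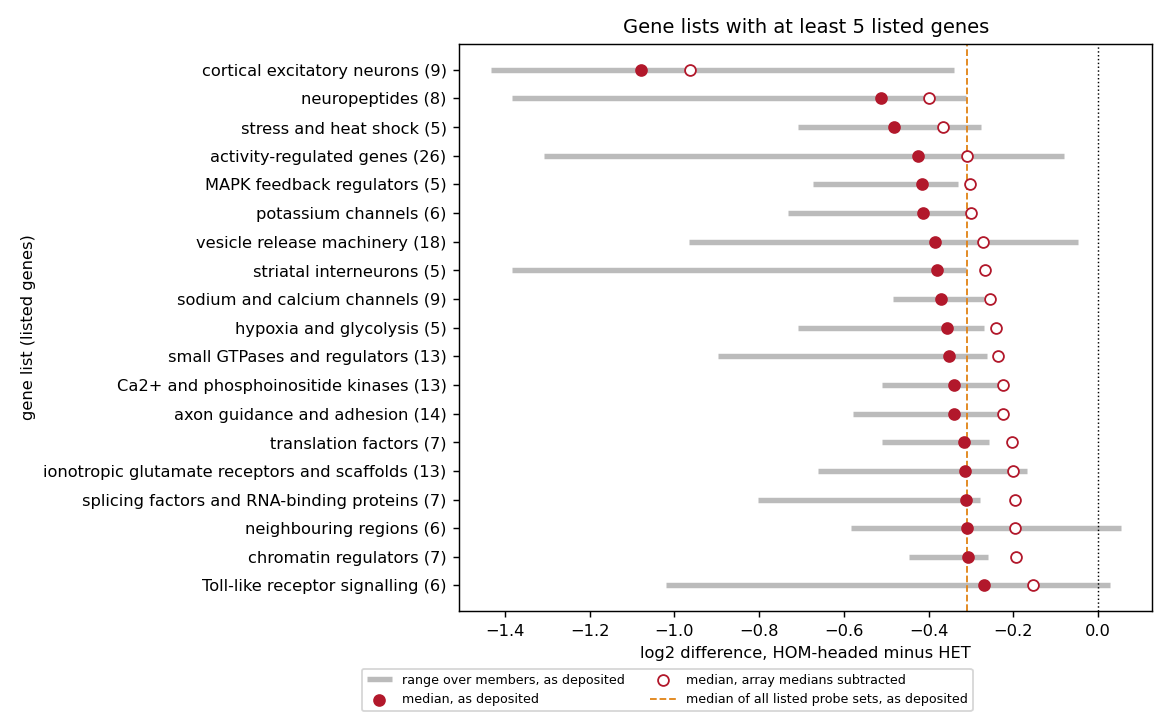
Log2 difference (HOM-headed minus HET) in lists with at least 5 named genes, whose number stands in brackets. Grey bars span the members, filled and open points are medians as deposited and after median centring, and the dashed line marks the median of all listed probe sets (-0.31). Cortical excitatory neuron markers lie farthest to the left, at -1.08 as deposited and -0.96 after centring.

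Markers of excitatory neurons of the cortex, which borders the striatum, had the most negative median of the lists. Of 20 such genes 9 are named, and all 9 had an unadjusted p under 0.05, at a median of -1.08 log2. After centring 6 of 9 did, at -0.96. Of all listed probe sets 83.7% were lower at that level as deposited, and 49.4% after centring. The count of 9 as deposited is thus near the share of the list. Centring on the hybridization controls also left 6 of 9, at a median of -0.85, where 40 of the 203 named genes were lower. Slc17a7, the vesicular glutamate transporter of cortical neurons, had 199, 803, 432 and 722 in the HOM-headed arrays and 1697, 1238, 1186, 742 and 2083 in the HET arrays. HOM2 overlapped HET4, and the difference was -1.43 ± 0.38 log2 (SE, limma adjusted p = 0.287). Tbr1, a transcription factor of deep cortical layers, had 114, 528, 197 and 406 against 826, 681, 389, 384 and 796 (-1.09 log2), with HOM2 and HOM4 inside the HET range. Rprm, described above, is also one of the 9. The summed intensity of the 9 markers was 3931, 8980, 6299 and 7477 in the HOM-headed arrays and 12882, 11408, 10430, 8168 and 17878 in the HET arrays. HET4 had the lowest sum of its group and HOM2 lay above it. No marker of the 9 was at 0 in any array.

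The cortical markers were also low in the WT-headed arrays, with sums from 4784 to 9617, and 8 of the 9 had an unadjusted p under 0.05 between WT-headed and HET arrays, at a median of -0.92. The HET arrays thus had the highest mean cortical signal of the 3 groups, with overlapping ranges. It moved with the synaptic, channel and signalling groups above, and its part in those differences was not tested. Activity-regulated genes had another order, as their summed intensity ran from 19568 to 27437 in HOM-headed, 24096 to 37366 in HET and 28426 to 39005 in WT-headed arrays.

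Neuropeptides had lower means in the HOM-headed arrays. So did 83.7% of all listed probe sets at an unadjusted p under 0.05, and 49.4% after centring. Vip, a peptide of interneurons, had 86.2, 386, 175 and 210 in the HOM-headed arrays and 585, 448, 408, 284 and 1224 in the HET arrays (-1.38 ± 0.34 log2, SE, limma adjusted p = 0.287), where HOM2 overlapped HET4. The stress peptide Crh differed by -1.07, Sst by -0.38 and Npy by -0.31. In all, 6 of 8 named neuropeptides had an unadjusted p under 0.05 (3 after centring). In the list drawn up for striatal interneurons 5 of 5 named genes did (2 after centring, 3 without HET5 or HOM3). Sst, Npy, Vip and Cck are on both lists, so the counts are not separate. Vip and Cck (-0.82) had the largest differences of the interneuron list. The 2 named medium spiny neuron markers, Arpp21 and Eya1, differed by -0.41 and -0.31. Both had an unadjusted p under 0.05, and 1 did without HET1, HET3, HET5, HOM3 or HOM4. For regions that border the striatum 6 of 17 markers are named, and the 2 with an unadjusted p under 0.05 were Lhx2 at -0.52 and Trpc4 at -0.34 (1 without HET1, HET3, HET5, HOM1 or HOM3).

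Other cell types could hardly be followed. In astrocytes Aldoc differed by -0.41 and Gfap by 0.15. Microglia are represented by Itgam alone, at -0.24, vessels by Tagln at -0.21, meninges by Aldh1a2 at -0.16 and red blood cells by Alas2 at 0.60, which was 0.00 without HOM2. None of these but Aldoc had an unadjusted p under 0.05, and Tagln and Aldh1a2 turned to the higher side when centred on the hybridization controls. No marker of oligodendrocytes, their precursors, choroid plexus or ependyma is named, so the part of those cells was not tested. Tlr4 therefore had 1 named microglial marker to stand beside it.

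Genes near Ptpn5 on chromosome 7 could be followed in few cases. Of the 40 genes next to Ptpn5 only Mrgpra1 is named, at -0.22 log2. Csrp3, with the smallest p of the higher genes after Ptpn5, lies 51 genes away on one side. On the other side Sergef and Kcnc1, 29 and 30 genes away, differed by -0.34 and -0.42. Of 16 named probe sets up to 93 genes from Ptpn5, its own left out, 14 had the lower mean in the HOM-headed arrays, and 9 of these had an unadjusted p under 0.05. Among all listed probe sets 83.7% were lower at that level, so these counts show no lowering particular to this region. Csrp3 and 1 of 2 Nav2 probe sets (0.03) had the higher mean.

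The WT-headed arrays give a second comparison with the same 5 HET arrays. WT-headed against HET called 3 of 45101 probe sets (0.00665%) and had 1201 (2.66%) with an unadjusted p under 0.05, 924 lower (2.05%) and 277 higher (0.614%). The called probe sets were both of Ptpn5 and Sult2b1, a cholesterol sulfotransferase on chromosome 7, 57 genes from Ptpn5. Sult2b1 had 175, 110, 133 and 122 in the WT-headed, 280, 303, 195, 242 and 315 in the HET, and 249, 267, 186 and 243 in the HOM-headed arrays. The WT-headed arrays were below all others, and fell by 0.91 log2 against HET (limma adjusted p = 0.0419), while the HOM-headed difference was -0.16. Sult2b1 did not pass after median centring (-0.88 log2) or quantile normalization (-0.86), or without any one of HET1, HET2, HET4, HET5, HOM1 and HOM2. Fits without single WT-headed arrays were not run. Tlr4 and Sult2b1 thus each passed in 1 of these comparisons, and the difference between the comparisons was not tested.

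A measure that no exchange of headings alters is the HET mean against the midpoint of the other 2 groups. By it no probe set was called by limma (0 of 45101, 0%), and 3092 (6.86%) had an unadjusted p under 0.05, 2966 of them (6.58%) with HET higher and the rest (0.279%) lower. The 4 genes with the smallest p were also among those described as lower in the HOM-headed arrays, with Rprm at 1.12, Egln3 at 0.88, Fam163b at 0.82 and Rasl10a at 0.73 log2 (limma adjusted p = 0.229 for each). Ptpn5 was close to the midpoint by its first probe set (0.18 ± 0.13 log2, SE) and its second (0.23 log2), with limma unadjusted p of 0.191 and 0.0594. Tlr4 in HET lay 0.33 log2 above the midpoint (limma adjusted p = 0.399), nearer to the WT-headed than to the HOM-headed arrays.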

How the data were processed

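The authors deposited 2 tables of intensity values for 13 arrays. One holds all 45101 probe sets and was used for every test, and the other holds 4423 with gene symbols, selected by the authors. PLIER made these intensities, per the submitters' processing notes, and neither the normalization nor the selection rule was found in the labels. The deposited fold and p columns were not used. Groups follow the headings of the shorter table, matched to the full table by equal values.

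Values were tested as log2(intensity + 16) with limma 3.58.1 (lmFit, eBayes with a trend) on all 13 arrays, with Benjamini-Hochberg adjustment over 45101 probe sets. Array measures had two-sided exact permutation tests, whose smallest p is 0.0159. The model was tested on simulated data. Of the 4423, 3581 had 1 symbol, 49 several and 793 none. Chromosomes and gene order come from RefSeq (GRCm38.p6), which matched 3543. Named genes were Ptpn5, Tlr4, in each comparison 10 genes per direction (first those that passed without overlap, by size, then by smallest p), and the 3 with the smallest p in each list. S100a8, Tbr1, Stx1a, Arc, Egr2 and the unnamed probe sets, with any further list member, were picked with their values in view. Members and lists were chosen with earlier results of these data known. Alternatives were the offset, a filter, centring, quantile normalization, array weights, a replicate block, a plain test and leaving out each HOM-headed or HET array. No WT-headed array was left out.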

Additional observations from a re-analysis of the deposited data

Results flagged for a closer look

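Single arrays stood apart from the rest of their group, by the gap to the nearest array relative to the group's range, in 8 of 272 groups looked at (2.94%); chance sets apart about 1 in 20 groups. HOM2 was apart for S100a9 at 235, for S100a8 at 840 and for Dusp1 at 1677. Tlr3 had a low HOM3 at 139 and a high HET3 at 277. Dusp6 was apart in HET4 at 1183.

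Both remaining cases are probe sets with no gene symbol in which HOM4 differed from the other HOM-headed arrays. The first, on the authors' list, had 94.0, 84.3, 95.0 and 279 in the HOM-headed arrays and 282 to 353 in the HET arrays. Its difference was -1.27 log2 (limma adjusted p = 0.0626), and without HOM4 it was -1.63. The second, also listed, had 437, 386, 437 and 67.9 against 56.5 to 92.1 in the HET arrays. Its difference was 1.69 log2 (limma adjusted p = 0.155), and without HOM4 it was 2.29. In both, HOM4 lay at the HET level. Both passed without HOM4, but they were picked because HOM4 stood apart, so that fit is no test of them.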

How the results depend on the processing

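Tlr4 was called under every alternative run except the filter, which leaves it out, and the plain test (-1.02 log2, adjusted p = 0.13). The count of 1 for HOM-headed against HET became 0 with the filter at a mean of 100, 0 with the plain test, 6 with the replicate block, 4 with array weights, 2 with control centring and 2 at an adjusted p of 0.10, and ran from 1 to 213 when single arrays were left out. Among listed probe sets it ran from 1 to 203, and adjusting over them alone gave 681. Probe sets lower at an unadjusted p under 0.05 (4884) became 2604 centred, 1732 quantile-normalized, 2438 with the block, 8356 with only these groups and 345 with control centring (2637 to 7502 leaving out arrays). Those higher (69) became 8 with the filter, 1865 centred, 1670 quantile-normalized, 458 with weights and 3042 with control centring (40 to 147). The midpoint count of 0 became 2 with the block and 1282 with weights (0 to 145). The WT-headed count of 3 became 12 with the block, 0 plain, 5698 with weights and 6 with control centring (1 to 4, with no WT-headed array left out). The weights were 12.05 for WT3 and 0.21, 0.40 and 0.44 for WT1, WT2 and WT4. The 5698 and 1282 calls with weights thus lean mainly on 1 WT-headed array. Ptpn5 passed with weights (0.83 and 0.63) and, for its first probe set, with control centring (0.92). Lower list members went from 173 to 110 centred and 40 with control centring. The cause was not tested. Same-numbered HOM-headed and HET arrays correlated from -0.05 to 0.19 in their deviations from the group means. Differently numbered ones ran from -0.40 to 0.28. These 4 same-numbered values show no clear pairing and are too few to exclude one. Under median centring, quantile normalization and leaving out arrays, 1353 values of 123 named probe sets kept their direction in the comparison that named each. Set as HOM-headed minus HET, the 5 for Dlk1, Myo3b, Irak3, Pycr1 and Scg2, named for WT-headed against HET, changed sign under at least 1 of these. Most were named for a small p on these same arrays, so a kept direction is no independent support. Leaving out a HOM-headed array cannot alter a WT-headed minus HET difference. Control centring and leaving out arrays for lists and after centring were chosen after seeing the data. Dim probe sets such as Tlr4 have little signal over background.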
